A study of Oryctolagus cuniculus with 10 samples.

Results

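The ATP-binding cassette (ABC) genes of rabbit liver, apart from 5 sterol and bile exporters, were followed under dietary squalene. They were chosen by symbol, as the letters ABC, a subfamily letter from A to G and a number, without ABCA1, ABCG1, ABCG5, ABCG8 and ABCB11. This gave 33 of the 19123 genes in the deposited table, with 7 in subfamily A, 6 in B, 11 in C, 4 in D, 1 in E, 3 in F and 1 in G. The livers came from male wild-type New Zealand white rabbits, which were starved before the livers were taken. The squalene group was 5 rabbits whose feed held 0.5% squalene and 1% sunflower oil, and the control group was 5 rabbits whose feed held 1% sunflower oil alone, each for 4 weeks. Poly-A RNA was sequenced in 10 libraries of 45.26 to 46.12 M clean reads.

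ABC proteins use ATP, bound at a pair of conserved cassettes, to move substrates across membranes. Subfamilies A, B, C, D and G hold membrane transporters and a few channel regulators, whereas the E and F proteins have the cassettes but no membrane part and act on ribosomes. In the liver, members of B and C place phospholipids, drugs, bilirubin conjugates and glutathione conjugates into bile or back into blood, and members of D bring fatty acids into peroxisomes.

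The deposited table gives 1 level for each diet and no level for each rabbit. No test across rabbits could therefore be made, and every difference below is a description without a replicate check. Where a level was 1 or more, the table had lost its decimal mark, so the results are given as the log2 ratio of the squalene level over the control level, with the power of 10 that brings both levels closest. A ratio beyond 3.16-fold in either direction cannot be told by this rule. A gene was counted as past the fold where the size of its log2 ratio was 0.5 or more, a 1.41-fold difference. In bulk liver RNA, fewer cells of a type and less RNA per cell cannot be told apart.

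The ratios of the ABC genes were small and lay on both sides of equality. Of the 33 members, 19 had a higher level in squalene livers and 14 a lower one, with a median log2 ratio of 0.042, against 0.018 over all 19123 genes. The median size of the log2 ratio was 0.21 in the members and 0.20 over all genes. Only ABCB8 was past the fold, and it was lower in squalene livers. Thus 1 of 33 members (3.03%) was past the fold in either direction, where 11.9% of all genes were. None of the members was past it on the higher side, where 7.12% of all genes stood, and 1 was past it on the lower side, where 4.77% of all genes stood. At a smaller difference, a log2 ratio of 0.25 or more in size, the shares lay close together, with 15 of 33 members (45.5%) against 40.1% of all genes. No member reached 0.75, which 3.37% of all genes did. Among the 12024 genes whose transcript length lay within that of the members, from 1685 to 9286 bases, 9.56% were past the fold. Of these genes, 539 were past it on the higher side and 611 on the lower, and their median log2 ratio was -0.028. Over all genes, 1361 were past it on the higher side and 913 on the lower. The share on each side thus varied with transcript length. The lists below are set beside all genes, not beside genes of like transcript length.

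**Figure D1:**
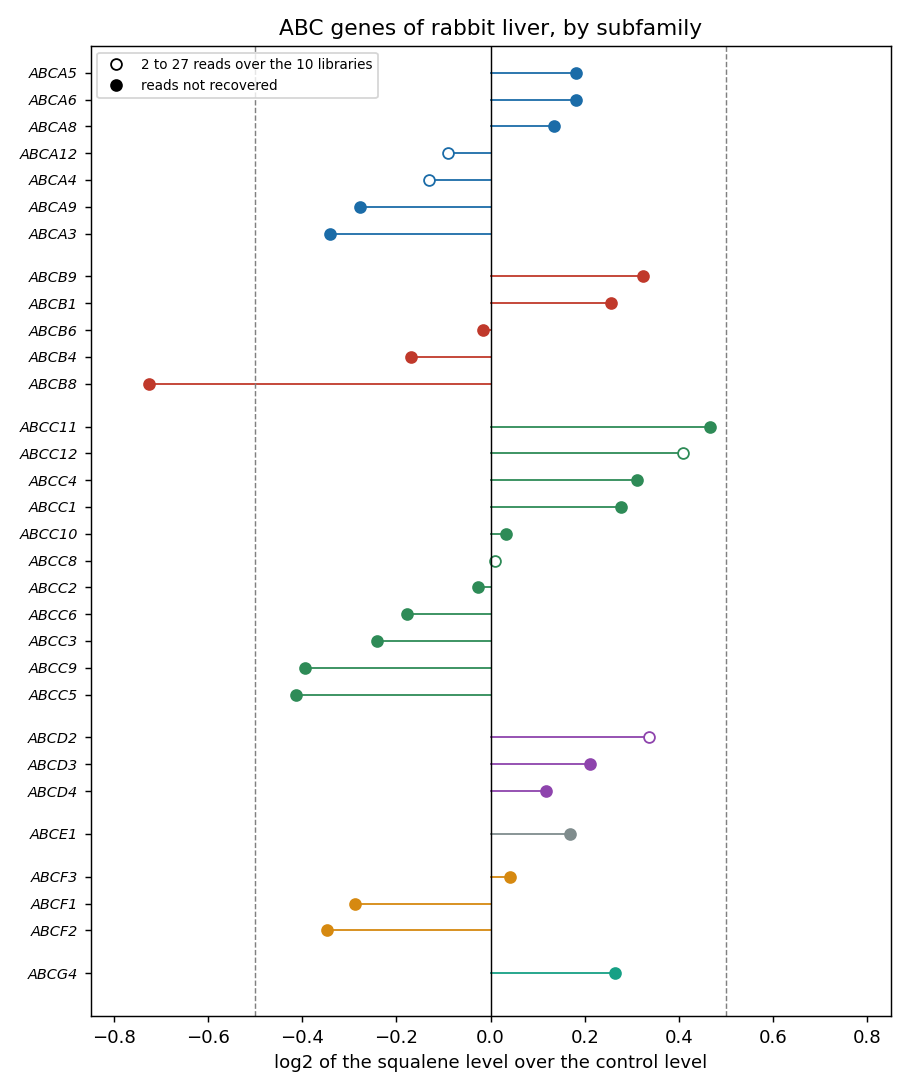
The log2 ratio of the squalene level over the control level (x axis) of 31 members, ordered within its subfamily, with 1 value per diet and no replicate spread. Open circles are the 5 members with 2 to 27 reads over the 10 libraries, and dashed lines mark 0.5 in either direction, which only ABCB8 at -0.73 passes.

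**Figure D2:**
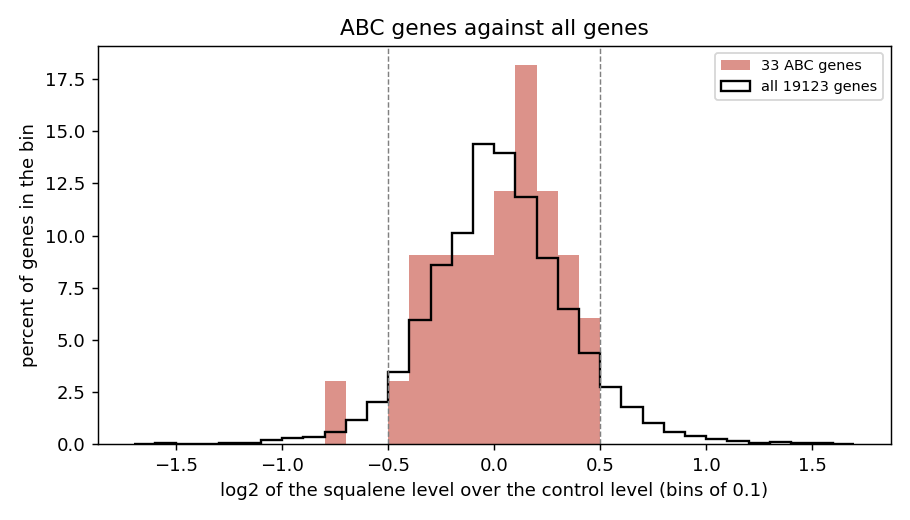
The percent of genes (y axis) in bins of the log2 ratio of squalene over control (x axis), for the 33 members (filled) and for all 19123 genes (line). Dashed lines mark 0.5 in either direction, past which lie 3.03% of the members and 11.9% of all genes.

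For the lowest members, the reads behind the levels could be recovered. The mean of a gene's levels over both diets equals its whole reads, each divided by the size factor of its library and averaged over the 10 libraries, and 1 read in 1 library adds from 0.0869 to 0.134 to it. ABCC8 had 2 reads in 2 libraries, ABCA12 had 3 reads in 3 libraries, and ABCC12 also had 3 reads in 3 libraries. ABCA4 had 14 reads in 8 libraries, with 0 to 2 reads in a library and a median of 2. ABCD2 had 27 reads in 9 libraries, with 0 to 7 reads in a library and a median of 2. The first 3 were thus seen in 3 libraries or fewer, and the ratios of all 5 rest on few reads. The libraries were not assigned to diets here, so these reads are not split by diet. A gene with 1 read in 1 library has a log2 ratio of only 0.0746 to 0.111 in size in the table. The deposited ratios are thus moderated and understate differences of genes with few reads. The extent of moderation in genes with more reads was not tested. Of the other members, 17 had a mean level of at least 13.3 normalised reads a library and 11 could not be settled. Leaving out the 5 members with few reads, 1 of 28 (3.57%) was past the fold. Over all genes, 11.9% were past it, and 13.3% of the 15928 genes with both levels at 1 or more.

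Members tied to mitochondria differed from each other. ABCB8, a transporter of the inner mitochondrial membrane that has been linked to mitochondrial iron export in mice, had a log2 ratio of -0.73, so that its level in squalene livers was 0.604 times that in control livers. Its mean level was at least 22.2 normalised reads, and 1.42% of all genes had a ratio as low or lower. ABCB6, a membrane protein tied to porphyrin transport, had a log2 ratio of -0.016 and stayed inside the fold. In the RefSeq gene order, ABCB8 lies beside ATG9B, followed by NOS3, whose log2 ratios were -0.26 and -0.30, and near CDK5, at 0.51. These neighbours were chosen after their values were seen.

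Genes of haem and iron-sulfur cluster synthesis, which share the mitochondrion with these transporters, had ratios on both sides of equality. Of 16 measured, 10 (62.5%) were higher in squalene livers and 6 lower, where 52.7% of all genes were higher, and the median was 0.17. Past the fold was 1 of the 16 (6.25%), on the higher side, against 11.9% of all genes in either direction and 7.12% on that side. That gene was ALAD, which joins aminolevulinate into porphobilinogen, at 0.63. ALAS1, which makes aminolevulinate and is the controlled step of hepatic haem synthesis, had a log2 ratio of -0.49 and stayed just inside the fold.

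Among exporters of the bile canaliculus, no member was past the fold. ABCB1, the P-glycoprotein that expels hydrophobic drugs, had a log2 ratio of 0.26. ABCB4, the closely related floppase that delivers phosphatidylcholine to bile, had a log2 ratio of -0.17. These genes lie next to each other in the RefSeq gene order and stood on opposite sides of equality. Reads shared between such related genes could have been split by the counting. ABCC2, which exports bilirubin glucuronides and other conjugates into bile, was nearly equal between the diets, at -0.026. A further gene annotated as ABCC2, LOC103351365, had both levels under 1 and stood at 0.37. CROT, the peroxisomal carnitine octanoyltransferase on the other side of ABCB4, had a log2 ratio of 0.61.

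Genes that supply or order the lipids of the canalicular membrane also showed small differences. Of 10 genes of phosphatidylcholine synthesis and phospholipid flipping, 6 were higher and 4 lower in squalene livers, where 52.7% of all genes were higher. None was past the fold, against 11.9% of all genes, and the median was 0.12. CEPT1, which makes phosphatidylcholine and phosphatidylethanolamine, stood at 0.44. ATP8B1, the canalicular flippase, stood at -0.31. Of 9 scaffold and trafficking genes that hold transporters at the membrane, 5 were lower in squalene livers, with a median of -0.21. None of the 9 was past the fold, against the same 11.9% of all genes. MSN, which encodes moesin, was at -0.46, and RAB11FIP1, an effector of recycling endosomes, was at -0.45.

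The exporters of the sinusoidal and lateral membrane were divided. ABCC1, which carries glutathione conjugates, had a log2 ratio of 0.28, and ABCC4, which carries cyclic nucleotides and bile acids into blood, one of 0.31. ABCC3, which returns glucuronides to blood, had a log2 ratio of -0.24. ABCC5, an exporter of cyclic nucleotides and other anions, had the second lowest ratio of all members, at -0.41, and 7.69% of all genes were as low or lower. ABCC6, the hepatocyte protein whose activity releases ATP and whose loss causes pseudoxanthoma elasticum in humans, had a log2 ratio of -0.18. ABCC1 and ABCC6 are neighbours in the RefSeq gene order, and they too stood on opposite sides of equality. ABCC10, a further drug exporter, was nearly equal between the diets, at 0.032.

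ABCC11 and ABCC12, which are neighbours, stood at 0.47 and 0.41 and were the highest of the members. ABCC11, known in humans for earwax type, was the member nearest to the fold on the higher side, and 91.7% of all genes had a ratio as low or lower. Its transcript in the table, of 1685 bases, was the shortest of the members, against 5115 bases for ABCC12. The ratio of ABCC12 rests on 3 reads in all. The transcripts of the members had a median length of 4384 bases.

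Genes that work with the drug exporters were measured as well. Of 12 solute carriers for drug uptake and efflux, 2 (16.7%) were past the fold, both higher in squalene livers, and the median was 0.11. Over all genes, 11.9% were past the fold in either direction and 7.12% on the higher side. SLC22A7, an organic anion transporter, had a log2 ratio of 1.45, and SLCO1A2, which takes up organic anions and bile acids, one of 0.97. SLC22A7 lies near ABCC10 in the RefSeq gene order, with 1 gene between them. Of 11 xenobiotic receptors and coregulators, 2 (18.2%) were past the fold, against 11.9% of all genes, and the median was -0.14. Of these 2, 1 was higher, against 7.12% of all genes, and 1 was lower, against 4.77%. HNF4A, a central transcription factor of hepatocytes, stood at -0.66, and NR1I3, the constitutive androstane receptor, stood at 0.58. None of 10 targets of the oxidative stress factor NRF2 was past the fold, against 11.9% of all genes, and the median of the 10 was 0.093. Among them, HMOX1, the inducible haem oxygenase, was at 0.42 and TXNRD1, the cytosolic thioredoxin reductase, at -0.38. Of 17 genes listed for glutathione synthesis and conjugation, only 9 were measured. Of the 9, 1 (11.1%) was past the fold, near the 11.9% of all genes, and the median was 0.14. The 9 include GCLC and GCLM of the list before, and SULT2A1, a sulfotransferase. MGST1, a microsomal glutathione transferase, was at 0.55 and GSTP1, a cytosolic one, at 0.48.

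Among 7 genes that act with ABCC6 on mineralisation, 6 were lower in squalene livers and 1 (14.3%) was higher, where 52.7% of all genes were higher. The differences were mostly small, with 6 of the 7 within 0.25 of equality and a median of -0.086. Only MGP, an inhibitor of soft tissue calcification, was past the fold (14.3%, against 11.9% of all genes), and it was higher, at 0.57. ENPP1, which makes pyrophosphate from the ATP that ABCC6 releases, was at -0.23.

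ABCC8 and ABCC9 are regulators of potassium channels rather than exporters. ABCC9, the sulfonylurea receptor of vascular and muscle channels, had a log2 ratio of -0.39, and 8.56% of all genes were as low or lower. ABCC8, the receptor of pancreatic beta cells, had 2 reads and a log2 ratio of 0.010. Their channel pores are their neighbours in the RefSeq gene order, and neither was past the fold, with KCNJ8 at 0.10 and KCNJ11, with both levels under 1, at 0.093.

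In subfamily D, ABCD2, ABCD3 and ABCD4 had a higher level in squalene livers, although none of them was past the fold. ABCD3, which imports branched-chain fatty acids and bile acid precursors into peroxisomes, had a log2 ratio of 0.21. ABCD2, which imports very long-chain fatty acids into peroxisomes, had a log2 ratio of 0.34 on 27 reads. Its moderated levels were 2.92 normalised reads in squalene livers and 2.31 in control livers. ABCD4, which is found on lysosomes and releases cobalamin, was at 0.12.

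A list of genes tied to peroxisomes, not all of which handle these substrates, was set beside subfamily D. Of 14 measured genes of peroxisomal beta-oxidation and membrane assembly, 12 (85.7%) were higher in squalene livers, against 52.7% of all genes. Of the 14, 3 (21.4%) were past the fold, all higher. Over all genes, 11.9% were past it in either direction and 7.12% on the higher side. The median log2 ratio of the 14 was 0.28. The 3 genes were CROT at 0.61, the thiolase gene ACAA1 at 0.59, and PEX3, which is needed to build the peroxisomal membrane, at 0.56. Of 9 genes acting around cobalamin release from lysosomes, beside ABCD4, none was past the fold, against 11.9% of all genes, and the median was 0.039. MTRR, which reactivates methionine synthase, was at 0.46 and MTR, methionine synthase itself, at -0.42. LMBRD1, the lysosomal partner of ABCD4, was at 0.17.

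ABCB9, a peptide transporter of lysosomes, had the highest ratio of its subfamily, at 0.32. Its relatives in the peptide loading complex of MHC class I, TAP1 and TAP2, carry symbols outside the rule and stood at -0.24 and -0.066. A further gene, LOC100351416, is annotated as ABCB3, the family name of TAP2, and stood on the other side of equality, at 0.21. Of 12 genes of peptide loading, TAP1 and TAP2 included, 1 (8.33%) was past the fold, against 11.9% of all genes, and the median was -0.039. That gene was B2M, the light chain of MHC class I, at 0.72, followed by the immunoproteasome subunit PSMB10 at 0.49.

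None of the 7 members of subfamily A was past the fold, and their median log2 ratio was -0.091. ABCA3, which loads surfactant lipids into lamellar bodies in the lung, was the lowest, at -0.34, with a mean level of at least 18.6 normalised reads. ABCA5, ABCA6, ABCA9 and ABCA8 lie in this order in 1 cluster, with 1 further gene between ABCA9 and ABCA8. In it, ABCA5 at 0.18, ABCA6 at 0.18 and ABCA8 at 0.14 were close together on the higher side, whereas ABCA9 was at -0.28. ABCA4, the retinal exporter of photoreceptors, was at -0.13, with moderated levels of 1.32 normalised reads in squalene livers and 1.44 in control livers. ABCA12, the lipid transporter of skin keratinocytes, was at -0.091 on 3 reads.

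The members without a membrane part were split. ABCE1, which separates ribosomal subunits after termination, had a log2 ratio of 0.17. ABCF1, which binds initiation factor eIF2, was at -0.29, ABCF2 at -0.35, and ABCF3, related to the yeast activator Gcn20, at 0.042. None of 10 genes of ribosome recycling and the GCN2 pathway was past the fold, against 11.9% of all genes, and the median of the 10 was -0.035. GCN1, the partner through which GCN2 senses ribosomes, was at -0.35 and ETF1, the release factor, at -0.29.

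ABCG4, known as a sterol exporter of the brain, was the only member of subfamily G under its own symbol, with a log2 ratio of 0.26. The number of reads behind it could not be settled. A further 12 genes without a symbol of this kind are annotated in the table as ABC genes of these subfamilies and were not counted as members. Of these, 2 are annotated as ABCG2, at -0.10 and 0.015, and 1 as ABCB10, at -0.085. Of the 12, only LOC100346422 was past the fold, at -0.53, where 11.9% of all genes were past it and 4.77% on the lower side. It is 1 of 4 annotated as ABCA3. The others of these 4 stood at -0.31, 0.093 and -0.081, the last 2 with both levels under 1. Reads shared between such copies and ABCA3 could have been split by the counting.

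Markers of liver cell types were set beside these results. All 5 measured hepatocyte markers were higher in squalene livers, from 0.032 for TF to 0.43 for TTR, and all 5 endothelial markers were lower, from -0.40 for STAB2 to -0.16 for LYVE1. The list medians were 0.31 for hepatocytes, -0.27 for endothelial cells, -0.14 for 3 cholangiocyte genes, 0.0068 for 5 stellate cell genes, 0.12 for 4 macrophage genes, 0.0030 for 3 lymphocyte genes and 0.036 for 2 erythroid genes. Only EPCAM, a marker of cholangiocytes, was past the fold, at 0.52, where 11.9% of all genes were past it. None of these markers had both levels under 1. The part of cell composition in the ratios of the ABC genes was not tested.

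**Figure D3:**
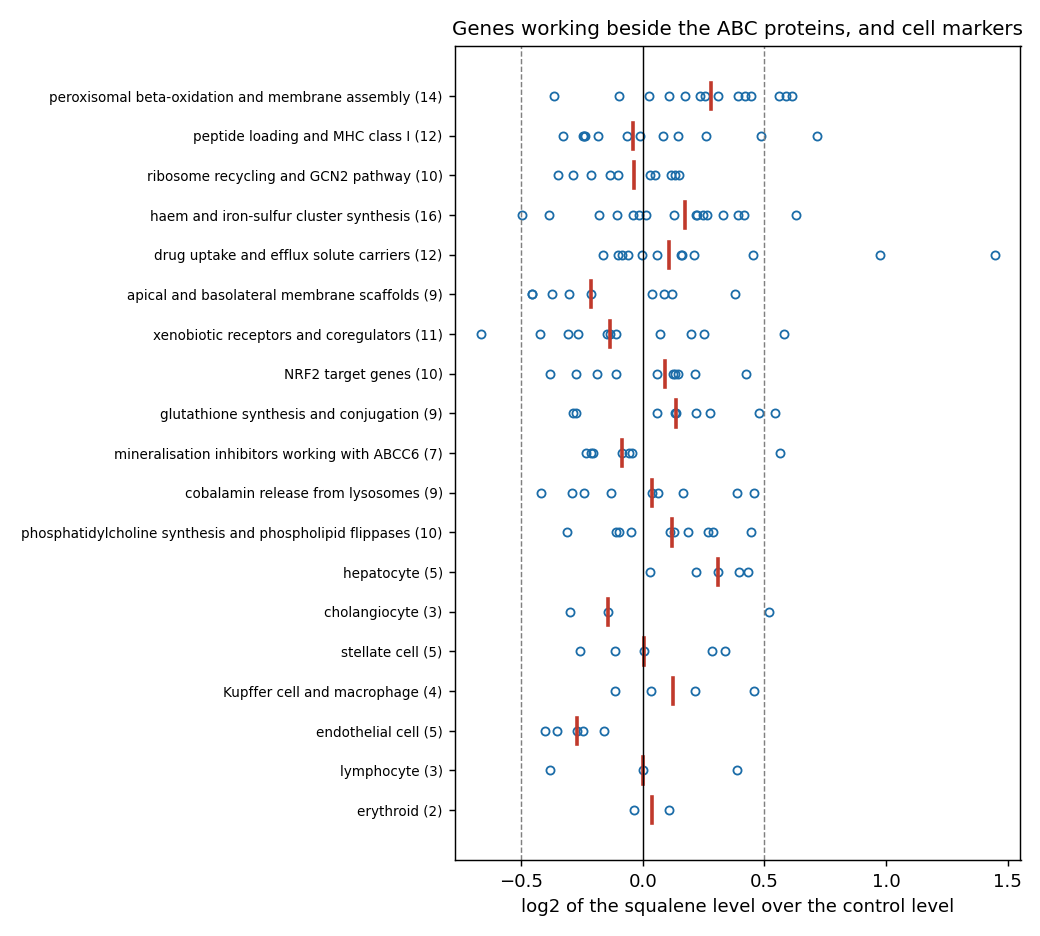
The log2 ratio of squalene over control (x axis) of each measured gene of 12 lists of genes working beside the ABC proteins and of 7 lists of cell markers, with the number measured in brackets. Each circle is 1 gene with 1 value per diet, red bars are list medians and dashed lines mark 0.5 in either direction, and the peroxisomal list has its median at 0.28 and the endothelial markers theirs at -0.27.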

How the data were processed

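Liver poly-A RNA of 10 rabbits was sequenced on the DNBseq platform. After quality filtering, the authors aligned reads with HISAT2 to the OryCun2.0 assembly, added coding transcripts found by StringTie, and computed expression per library with Bowtie and RSEM. The deposited levels, 1 per diet, are normalised and moderated values made from such estimates by a step that the methods do not describe. Tool versions are not given in the sources used here. The study's methods and the labels give 5 rabbits per diet, but 1 of its legends speaks of partial pooling.

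The table also holds the authors' log2 fold changes, p-values and adjusted p-values, which were not used. How far the ratios of the moderated levels repeat those fold changes was not tested. Levels had lost their decimal mark and were used as ratios. Members, lists and named genes were chosen with earlier results of these data known. Of the members, 2 are counted but not reported singly here. The rule names every other member, describes further those past or nearest the fold and the main hepatic transporters, and takes from each list the 2 genes with the largest ratio in size. Of several genes with 1 symbol, that with the longest transcript was taken. Any other named gene was chosen after its value was seen.

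Reads were recovered by lattice reduction (sympy 1.14.0, Python 3.11.15), accepting a match where at most 0.01 would arise by number alone. Whole reads resulted for 2953 of 2953 genes with both levels under 1, and for 241 of 242 genes with 1 level under 1. On simulated levels up to 6, the reads were right in 100% of 300 cases. At a level of 7 they were right in 54 of 60 cases, and the limit of 0.01, which leaves out such levels, was set after this was seen. Levels shifted away from whole reads were also tried. A match was still found in 2 of 300 cases up to 6 and in 10 of 60 at 7. RSEM estimates are not always whole, so these are taken as the rounded reads behind the levels. Depth is known only as clean reads per library, whose names match no single sample label. RefSeq (mOryCun1.1) held 30 members by gene ID and 32 by symbol, and was used for gene order only. No member has an event among the 39 genes of the splicing tables. The site tables, with 30 columns of single libraries, were not used, since their sites carry no gene names.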

Additional observations from a re-analysis of the deposited data

How the results depend on the processing

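With another size of log2 ratio as the fold, 40.1% of all 19123 genes were past it at 0.25 (4223 higher, 3451 lower). At 0.75 it was 3.37% of all genes, and at 1 it was 0.999%. The number of members past the fold became 15 at 0.25 (8 higher, 7 lower), 0 at 0.75 and 0 at 1. Thus the lower call of ABCB8 ended, with 0 lower members at 0.75 and at 1. It stayed 1 member, lower, with ratios centred on the median of all genes, with only the 28 members whose levels have the same number of digits, without predicted genes, without genes that share both levels with another gene, without levels under 1, within the members' transcript length, and, chosen after seeing the data, without the 5 members whose reads were recovered. The median log2 ratio of members moved by less than 0.05 in each of these. Centring shifted every ratio by 0.018 and changed the sign of 1 member, ABCC8. No paired analysis was possible because the table gives 1 level per diet and no value for a numbered rabbit. The planned comparisons of splicing events, of sites, and of promoters and proteins were not run, since no member has an event, sites carry no gene names, and sequences were not analysed here. Without values per rabbit, no rabbit could be left out, and the depth behind the members with unsettled reads is unknown.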
